A study of Mus musculus with 6 samples.

Results

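Sodium channel and hyperpolarization-activated cyclic nucleotide-gated (HCN) channel subunits were followed in GT1-7 cells given arginine vasopressin (AVP). The 8 members were Scn3a, Scn8a and Scn9a (pore-forming sodium channel alpha subunits), Scn2b, Scn3b and Scn4b (sodium channel beta subunits) and Hcn2 and Hcn3 (HCN channel subunits). All 8 were found by symbol among 24391 gene rows. They had been chosen by symbol with the AVP against control differences in these same libraries already known. Their differences are therefore described, and calls from the fit of all genes, given below, are not read as a test of them. A sodium channel alpha subunit forms the voltage-gated pore that carries the rising phase of the action potential, and beta subunits are single-pass membrane proteins that tune its gating and its place in the membrane. HCN channels open on hyperpolarization, carry an inward cation current that helps set rhythmic firing, and are modulated to differing degrees by cyclic AMP. Both families are known as determinants of excitability and burst firing in gonadotropin-releasing hormone (GnRH) neurons.

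GT1-7 is an immortalised mouse hypothalamic line that the labels give as GnRH neuron-like and wild type. The line came from a hypothalamic tumour of a mouse with a viral T antigen under a GnRH promoter, and it lacks the circuit and glia of the hypothalamus. Every culture was kept without serum for 12 h. In the AVP group, 3 cultures received AVP at 200 pg/mL for 6 h, and 3 control cultures received vehicle, although a further label field describes them as untreated. Cultures are labelled as biological replicates, and all 6 share a batch label.

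Library totals lay between 34908867 and 37418318 counts, so that 3 counts, the floor used below, equal 0.0802 to 0.0859 CPM (counts per 1000000). Some library measures moved with treatment or set a library apart. Control replicate 1 carried 0.995% of its counts on the ribosomal precursor Rn45s, against 0.139 to 0.245% elsewhere. Malat1, a nuclear RNA, lay between 499 and 1106 CPM of total counts in control libraries and between 1499 and 1724 in AVP libraries, and 16166 to 16403 genes had a count in control libraries against 16674 to 16739 with AVP. Of 8 neuronal markers, 7 were tested, with 3 higher, 1 lower and 3 not past the threshold given below. The share past it was 57.1%, beside 57.5% of all tested genes. Among these markers, Syp (971 and 722 CPM in control and AVP), Uchl1 (507 and 478 CPM) and Tubb3 (179 and 255 CPM) were abundant. Stmn2, the marker left untested, had 1 count over all libraries. Gnrh1, which defines the labelled cell type, was low, with 0.483 CPM in control and 0.418 with AVP. The oligodendrocyte marker Mbp fell from a range of 46.0 to 51.3 CPM in control to 15.6 to 17.9 CPM in AVP libraries, while Mog was at 0 throughout. Microglia, endothelial and fibroblast markers each summed to at most 0.370 CPM, and astrocyte markers to 1.05 to 1.18 CPM in control and 1.66 to 2.17 CPM in AVP libraries. What part these measures have in the channel values was not tested, and in bulk RNA fewer cells with a transcript cannot be told apart from less transcript per cell.

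Among the pore-forming members, Scn3a was higher with AVP, Scn8a differed by less than the spread between libraries, and Scn9a was nearly absent. Scn3a encodes an alpha subunit best known from embryonic neurons (GRCm38 chromosome 2, 65457118 to 65567627, minus strand). It was measured at 16.9, 17.5 and 17.7 CPM in control replicates 1, 2 and 3 and at 25.4, 22.2 and 21.7 CPM in AVP replicates 1, 2 and 3. All AVP libraries lay above all control libraries, and AVP replicate 1 stood above the other AVP libraries. The coefficient of variation was 2.31% in control and 8.66% with AVP, against medians of 7.22% and 6.54% over all tested genes. The mean was 1.33-fold higher, a log2 fold change of 0.41 (SE 0.09, n = 3 per group).

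Scn8a encodes the main alpha subunit of mature axon initial segments and nodes of Ranvier (chromosome 15, 100869858 to 101045938, plus strand). It had 50.8, 55.3 and 63.5 CPM in control replicates 1, 2 and 3 and 48.8, 54.8 and 55.9 CPM in AVP replicates 1, 2 and 3. The groups overlapped, with the highest value in control replicate 3 and the lowest in AVP replicate 1. The log2 fold change was -0.09 (SE 0.08).

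Scn9a encodes an alpha subunit best known from sensory and sympathetic neurons (chromosome 2, 66480080 to 66634962, minus strand). It had 14 counts in control replicate 1, the library with the high Rn45s share, and 0 in the other 5. The 0 counts over the AVP group allow up to 0.0271 CPM, and those over control replicates 2 and 3 allow up to 0.0427 CPM, covering counting error only. No fold is given, since 1 library held every count, and the gene did not pass the filter on low counts.

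The beta subunits held the widest differences among the members. Scn3b encodes a beta subunit that associates with the pore without a covalent bond (chromosome 9, 40269217 to 40291618, plus strand). It was measured at 6.58, 6.05 and 4.87 CPM in control replicates 1, 2 and 3 and at 19.6, 20.2 and 24.7 CPM in AVP replicates 1, 2 and 3. The groups did not overlap, and the lowest AVP library lay well above the highest control library. The mean was 3.69-fold higher with AVP (log2 fold change 1.88, SE 0.13).

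Scn2b encodes a beta subunit joined to the pore by a disulphide bond (chromosome 9, 45117782 to 45130070, plus strand). It had 3.18, 4.22 and 2.42 CPM in control replicates 1, 2 and 3 and 0.843, 0.925 and 1.14 CPM in AVP replicates 1, 2 and 3. Every AVP library lay below every control library, although the control values varied by 27.6% around their mean and rest on 84 to 150 counts each. The mean was 3.38-fold lower with AVP (log2 fold change -1.75, SE 0.26).

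Scn4b encodes the other disulphide-linked beta subunit, whose cytoplasmic tail is known to block the open pore and so to permit resurgent current (chromosome 9, 45138395 to 45154152, plus strand). It had 0, 1 and 2 counts in control replicates 1, 2 and 3 and 44, 37 and 48 counts in AVP replicates 1, 2 and 3. Control libraries were thus at or below the floor, and the AVP level was 1.17 ± 0.179 CPM (SD, n = 3). Over each group, 129 counts with AVP against 3 in control differ by a factor of 41.4 after scaling (exact 95% bounds 13.8 and 203, counting error only). Without control replicate 3 the factor was 83.7 (14.8 to 3329), on 1 control count, and without control replicate 1 it was 27.3 (9.14 to 134). It entered the fit through its AVP libraries alone, so any gene admitted in that way had to differ.

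Scn2b and Scn4b are neighbours on the same strand of chromosome 9, with 8.3 kb between the end of the former and the start of the latter and no other protein-coding gene in the gap. Scn2b was the lower and Scn4b the higher with AVP. The windows around their start sites are shown because these adjacent genes went in opposite directions. By GENCODE, Scn4b starts at 45138395, near the upstream end of its window, so most of that window lies within the GENCODE gene. Scn2b starts at 45117782, inside its own window, so part of that window lies within its gene too. Each window spans 300 bases around the RefSeq start (GRCm38.p6, plus strand), with CG dinucleotides in capitals. The positions are chr9:45117626-45117925 for Scn2b and chr9:45138374-45138673 for Scn4b.
Scn2b: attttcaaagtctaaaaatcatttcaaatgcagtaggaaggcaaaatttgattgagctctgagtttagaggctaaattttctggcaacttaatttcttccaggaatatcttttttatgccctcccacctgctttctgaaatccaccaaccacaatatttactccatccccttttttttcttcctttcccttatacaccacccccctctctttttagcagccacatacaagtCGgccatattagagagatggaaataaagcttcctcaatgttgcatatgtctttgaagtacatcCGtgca
Scn4b: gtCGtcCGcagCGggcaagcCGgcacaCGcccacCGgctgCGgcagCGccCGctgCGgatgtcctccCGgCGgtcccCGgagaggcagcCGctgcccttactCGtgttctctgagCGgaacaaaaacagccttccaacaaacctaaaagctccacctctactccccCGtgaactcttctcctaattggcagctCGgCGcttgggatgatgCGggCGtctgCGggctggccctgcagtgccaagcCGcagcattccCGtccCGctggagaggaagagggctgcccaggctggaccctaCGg

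The Scn2b window was poor in CG dinucleotides, with 2 of them and a GC content of 38.3%, and 14.6% of 27025 RefSeq promoter windows held fewer. The Scn4b window had 26 and a GC content of 66.3%, and 83.2% of windows held fewer. The median window had 7. A search of both strands for TGACGTCA (the cyclic AMP response element), TGANTCA (the AP-1 element), TGATGNAA (the C/EBP-ATF response element) and GGGCGG (the SP1 box) found no match in either window. These occur in 1.88%, 7.93%, 4.06% and 35.9% of all windows. RefSeq windows were matched for 5 of the 8 members and not for Scn3a, Scn3b or Hcn3. The window of Hcn2, which was lower with AVP, also held 26 CG dinucleotides. Scn8a had a window with 38 and a window with 12, and the Scn9a window had 9. Of the elements searched, the Hcn2 window held 3 SP1 boxes, the Scn9a window 1 C/EBP-ATF response element, and the Scn8a windows none. Whether CG content goes with direction was not tested.

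The HCN members were lower with AVP by small amounts. Hcn2 encodes a subunit that is strongly modulated by cyclic AMP (chromosome 10, 79716634 to 79736108, plus strand). It was measured at 192, 178 and 168 CPM in control replicates 1, 2 and 3 and at 158, 170 and 156 CPM in AVP replicates 1, 2 and 3. AVP replicate 2 lay just above control replicate 3, so the groups overlapped. The mean was 1.11-fold lower (log2 fold change -0.15, SE 0.06). Scaled to library size alone the log2 fold change was -0.12, without control replicate 1 it was -0.11. Hcn2 no longer passed the threshold given below under either setting, nor against a fold change of 1.2. The call was also lost without control replicate 2, without AVP replicate 1 and without AVP replicate 3.

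Hcn3 encodes a subunit that responds little to cyclic AMP (chromosome 3, 89146074 to 89160196, minus strand). It had 36.7, 35.0 and 31.9 CPM in control replicates 1, 2 and 3 and 27.9, 27.7 and 25.6 CPM in AVP replicates 1, 2 and 3. All AVP libraries lay below all control libraries, and the mean was 1.28-fold lower (log2 fold change -0.35, SE 0.08). Exons of Hcn3 and of Pklr, on the opposite strand, share 711 of the 4154 exon bases of Hcn3, and no source used here says whether counting used strand. Pklr itself had 3 to 14 counts per library against 923 to 1327 for Hcn3.

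**Figure D1:**
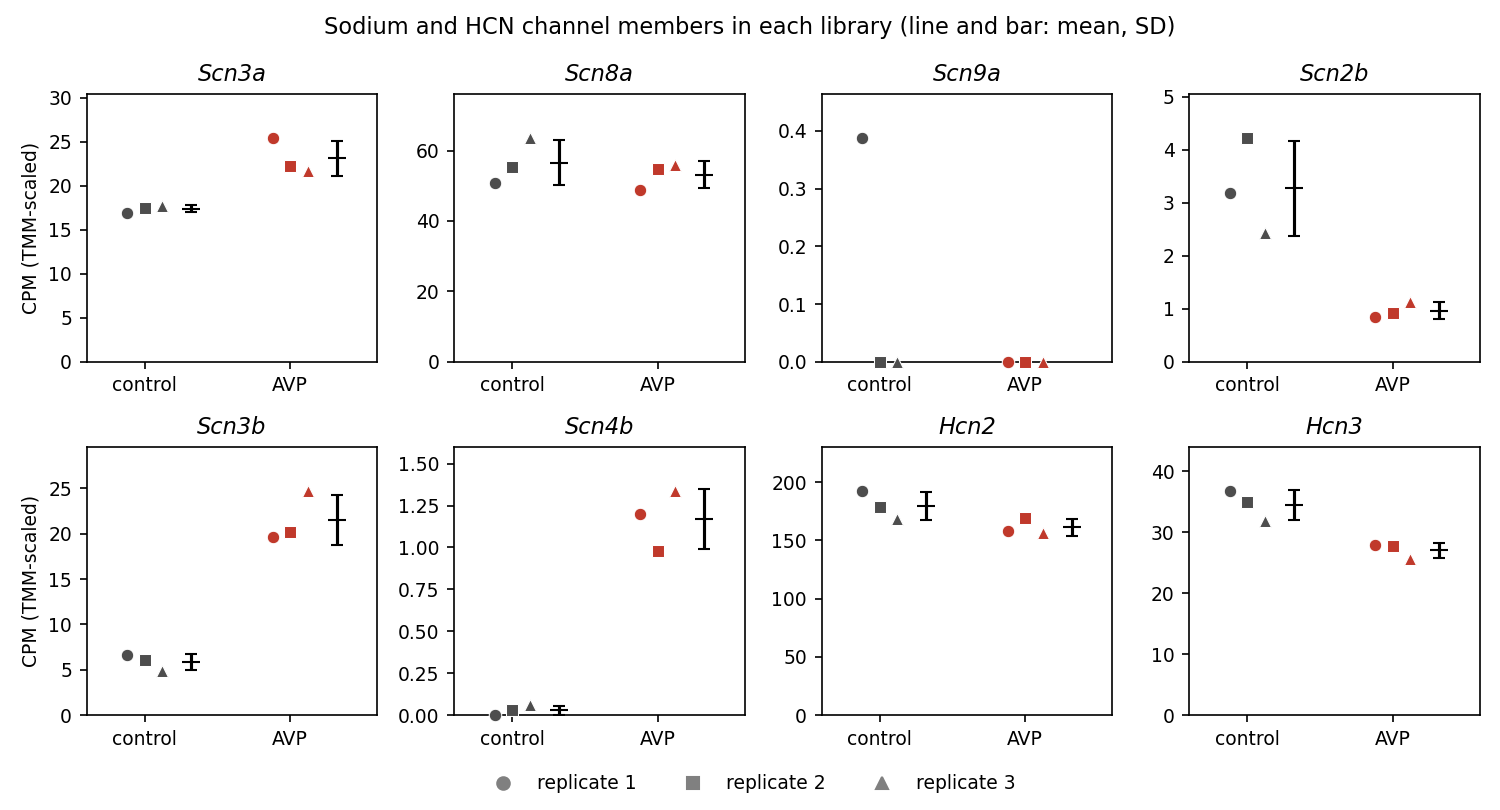
CPM of each member (vertical axis, scaled by TMM factors, starting at 0) in the 3 control and 3 AVP libraries, with 1 point per library and the mean and SD beside them. Scn3a, Scn3b and Scn4b sit higher and Scn2b and Hcn3 lower with no overlap between groups, Scn8a and Hcn2 overlap, and Scn9a has counts in control replicate 1 alone and is drawn without a mean.

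In the fit of all genes, 7 of the 8 members passed the filter and 6 of them had an adjusted p under 0.05, 3 higher and 3 lower with AVP. Of all 14163 tested genes, 57.5% were past the same threshold, 28.7% higher and 28.8% lower. Groups did not overlap for 5 of the 7 tested members and for 63.4% of all tested genes. Scn4b, counted as higher and as without overlap, entered the fit through its AVP libraries alone and so had to differ. The median log2 fold change was -0.09 over the 7 members tested and 0.01 over all tested genes. Because this same contrast was known when the members were chosen, nothing is read from these counts.

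Levels of different genes were compared as CPM per kilobase of exon, using the union of annotated exons in GENCODE M21. Hcn2 was the highest of the subunits compared, at 56.2 ± 3.73 CPM per kilobase in control and 50.5 ± 2.26 in AVP libraries (SD, n = 3). Hcn3 followed at 8.31 ± 0.589 and 6.51 ± 0.296, and Hcn4 at 2.85 ± 0.261 and 1.43 ± 0.161. The ranges of these HCN genes were apart in both groups.

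Scn8a and Scn11a stood together among the alpha subunits compared. Scn8a was at 3.59 ± 0.406 CPM per kilobase in control and 3.37 ± 0.242 with AVP, Scn11a was at 3.47 ± 0.239 and 3.42 ± 0.242, and their ranges overlapped in both groups. Scn3a was lower, at 1.40 ± 0.0322 in control and 1.86 ± 0.161 with AVP. In control libraries it lay just above Scn1a, whose highest value of 1.33 was close to the lowest value of Scn3a, 1.36. With AVP the gap was wider, since the lowest Scn3a value was 1.74 and the highest Scn1a value 0.847.

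Among the beta members, Scn3b and Scn2b overlapped in control libraries, at 1.07 ± 0.160 and 0.703 ± 0.194 CPM per kilobase. With AVP, Scn3b was at 3.94 ± 0.504, and its lowest value of 3.60 lay far above every value of the other beta members. Scn4b was at 0.00574 ± 0.00579 in control libraries, apart from Scn2b. With AVP, Scn2b and Scn4b were at 0.208 ± 0.0328 and 0.235 ± 0.0360, and their ranges overlapped.

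**Figure D2:**
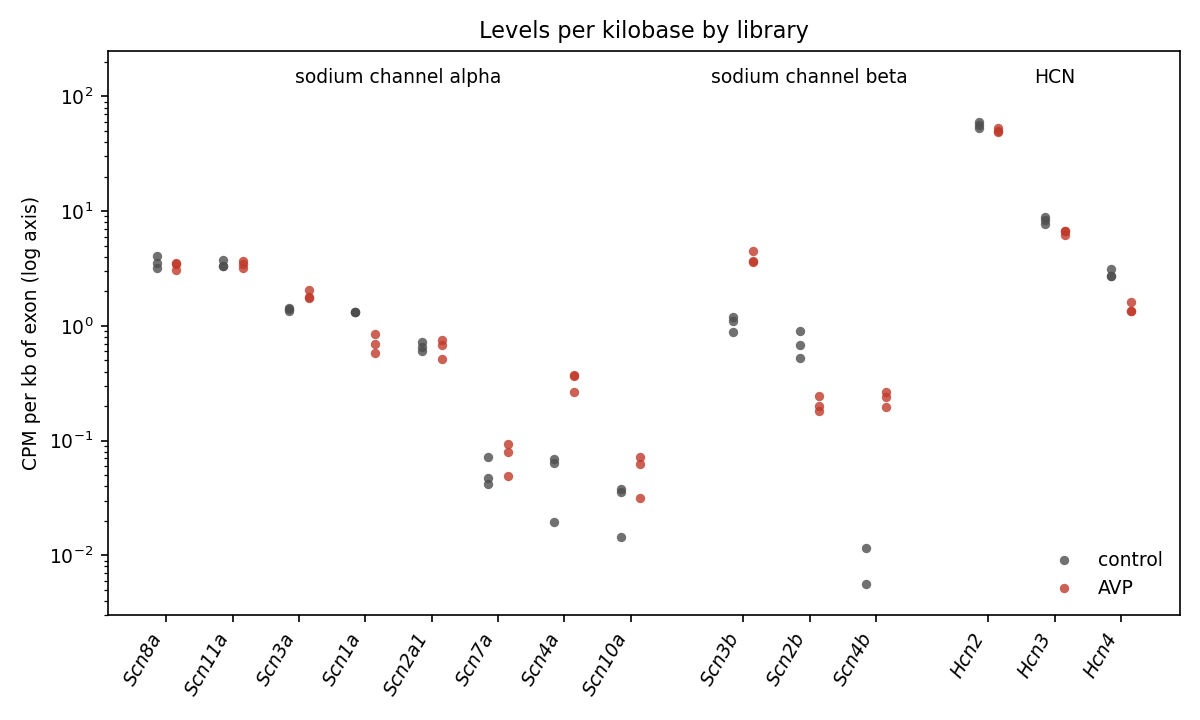
CPM per kilobase of exon (vertical log axis) of sodium and HCN channel subunits, with 1 point per library, control in grey and AVP in red. A value of 0 cannot be drawn on a log axis, so control replicate 1 of Scn4b is missing. Scn9a, with counts in control replicate 1 alone, is left out. Scn2b and Scn4b lie apart in control and together with AVP.

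Of 7 other subunits of both families reported here, all tested, 1 rose, 2 fell and 4 did not pass the threshold, that is 42.9% past it beside 57.5% of all tested genes. Scn4a, known from skeletal muscle, was near the floor in control libraries, with 5 to 17 counts each and 0.360 ± 0.193 CPM. It rose to 2.35 ± 0.436 CPM with AVP, by 2.70 on the log2 scale (SE 0.37, adjusted p = 1.32e-05). Scn1a, known from inhibitory interneurons, had 14.8 ± 0.105 CPM in control and fell to 7.86 ± 1.49 CPM, by 0.91 on the log2 scale (SE 0.13, adjusted p = 2.63e-05). Scn2a (listed as Scn2a1) at 8.44 and 8.27 CPM, Scn7a at 0.394 and 0.541, Scn10a at 0.234 and 0.441 and Scn11a at 20.6 and 20.3 CPM (control and AVP means) did not pass the threshold.

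Hcn4, the slow HCN subunit best known from cardiac pacemaker cells, had 19.3, 16.5 and 16.5 CPM in control replicates 1, 2 and 3 and 8.19, 9.89 and 8.17 CPM in AVP replicates 1, 2 and 3. The groups did not overlap, and every AVP library lay well below every control library. The AVP mean of Hcn4 was 0.501 of the control mean (SE of the log2 fold change 0.12, adjusted p = 3.17e-06), and its call held under all 12 alternatives. The members Hcn3 and Hcn2, 1.28-fold and 1.11-fold lower, differed less between groups than Hcn4, a comparison between genes that was not tested.

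The sodium channel genes of chromosome 2 did not share 1 direction. Scn3a, Scn2a1, Scn1a, Scn9a and Scn7a lie there in that order, and other genes in the gaps were not looked for. The gap between Scn2a1 and Scn1a is 503.3 kb, and the other gaps are 38.5 to 53.1 kb. Scn3a was higher and Scn1a lower, on either side of that wide gap, and Scn2a1 and Scn7a did not pass the threshold.

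**Figure D3:**
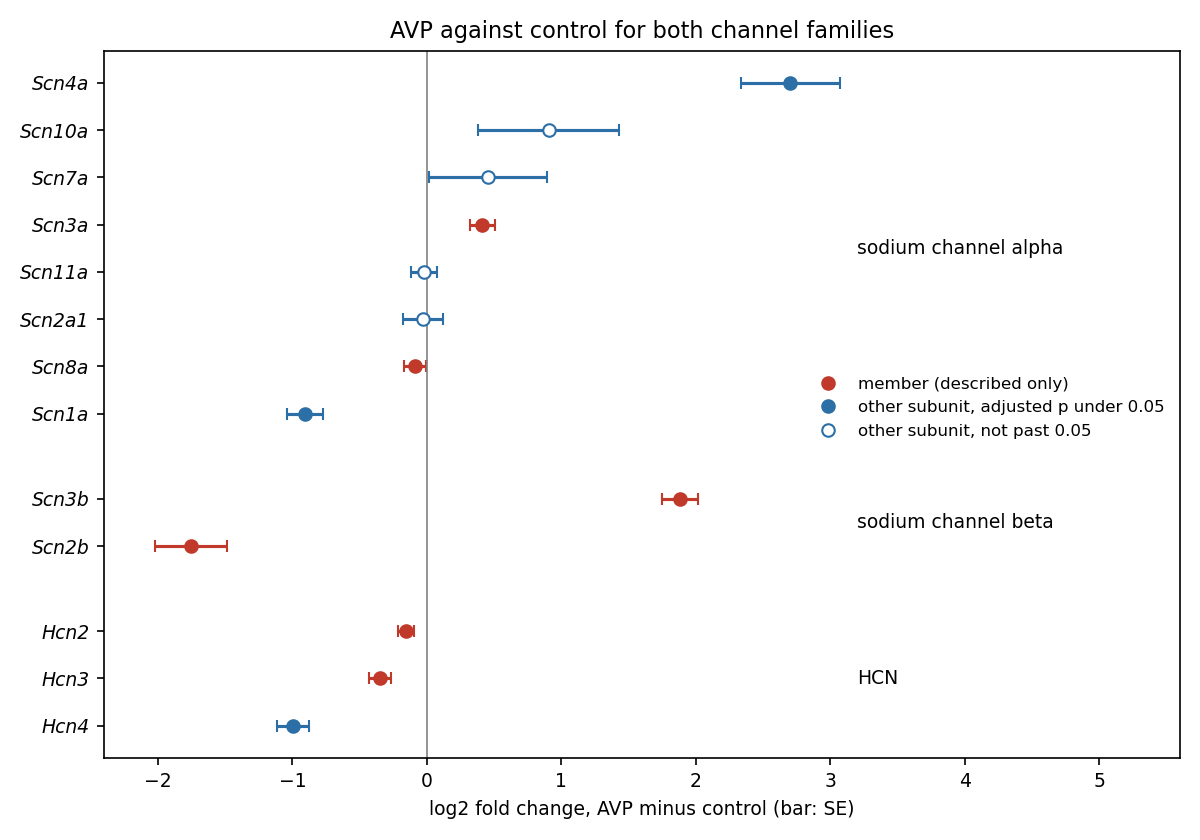
Log2 fold change of AVP minus control (horizontal axis, bars show the SE from the fit) for tested subunits of both families, members in red and other subunits in blue. Values run from -1.75 for Scn2b to 2.70 for Scn4a, and Scn4b is left out because its control libraries hold 3 counts in all.

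Genes that act with these channels were read from 6 lists, put together like the members with earlier results known. Of 56 genes with a row, 44 were tested, 14 rose, 11 fell and 19 did not pass the threshold, with a median log2 fold change of 0.01. The 25 genes past the threshold are 56.8% of those tested, close to the 57.5% of all tested genes, so the lists are described here by their genes and not set apart from other genes. Of genes that anchor or modulate sodium channels, 5 rose, 5 fell and 5 did not pass, with a median of -0.02 and 66.7% past the threshold. Ank3, which encodes ankyrin-G, the scaffold that gathers sodium channels at the axon initial segment, rose from 24.8 ± 3.37 to 56.2 ± 3.98 CPM (adjusted p = 5.17e-08). Nrcam, an adhesion molecule of the initial segment and node, fell from 23.1 ± 1.04 to 13.0 ± 0.943 CPM (adjusted p = 2.80e-06). Cntn1, contactin, which raises sodium channels at the surface, fell from 262 ± 8.63 to 204 ± 9.20 CPM (adjusted p = 3.03e-05). Fgf13 and S100a10 had 0 counts in every library.

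Of the HCN channel partners, 2 of the 3 tested fell, where 28.8% of all tested genes did, and Flna did not pass the threshold. A list of 3 genes is too short to be read against that share. Kcne2, an accessory subunit known to pair with potassium and HCN channels, went from 162 ± 5.34 to 50.8 ± 0.634 CPM, a log2 fold change of -1.67 (SE 0.06, adjusted p = 1.78e-12). Kctd3, known to bind Hcn3 protein, fell from 84.5 ± 0.492 to 75.6 ± 1.51 CPM (adjusted p = 0.0214). The Kctd3 call held under 8 of 12 alternatives (adjusted p 0.0185 to 1.0) and was lost with library size alone, against a fold change of 1.2, and without control replicate 2 or AVP replicate 2. Pex5l, the main HCN trafficking partner of forebrain neurons, had 2 counts in control replicate 1 and 0 elsewhere.

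Adenylyl cyclases, which make the cyclic AMP that HCN channels bind, were 3 higher, 1 lower and 3 not past the threshold of 7 tested, with a median of 0.05 and 57.1% past it beside 57.5% of all tested genes. Adcy1, a calcium-stimulated cyclase, rose from 23.6 ± 1.76 to 62.2 ± 4.66 CPM (adjusted p = 1.07e-09). Adcy3 rose from 29.5 ± 0.950 to 43.3 ± 1.54 CPM (adjusted p = 9.70e-06). Adcy7 fell from 34.2 ± 2.32 to 26.3 ± 1.90 CPM (adjusted p = 0.00128), a call lost only against a fold change of 1.2 among the 12 alternatives (adjusted p 0.000122 to 0.0822). The third cyclase counted as higher, Adcy6, overlapped between groups, at 80.3 ± 6.04 and 100.5 ± 18.5 CPM (adjusted p = 0.0457). Its call held under 6 of the 12 alternatives (adjusted p 0.00078 to 0.301) and was lost without the filter, against a fold change of 1.2, and when control replicate 1 or 2 or AVP replicate 2 or 3 was dropped.

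The NALCN channel carries a resting sodium leak. Of its 5 listed genes, all tested, 1 rose, 1 fell and 3 did not pass, with 40.0% past the threshold beside 57.5% of all tested genes. Unc79, which encodes a large auxiliary protein of the complex, rose from 19.8 ± 1.73 to 41.5 ± 1.30 CPM (adjusted p = 3.97e-08). Its partner Unc80 fell from 37.4 ± 2.32 to 31.7 ± 2.82 CPM (adjusted p = 0.0255). The Unc80 call held under 7 of 12 alternatives (adjusted p 0.0118 to 0.606) and was lost with library size alone, against a fold change of 1.2, and when control replicate 3 or 1 of AVP replicates 1 and 3 was dropped. The pore gene Nalcn was at 2.92 and 3.30 CPM in control and AVP and did not pass the threshold. The sodium-potassium pump restores the gradient that sodium channels run down. Of its 5 tested subunits reported here, 2 rose, 0 fell and 3 did not pass the threshold. That is 40.0% past it, while of all tested genes 57.5% were past it and 28.7% were higher. Atp1b1 rose from 124 ± 3.38 to 254 ± 11.2 CPM (adjusted p = 2.81e-10) and Atp1b2 from 58.5 ± 6.94 to 104 ± 7.19 CPM (adjusted p = 8.33e-07). Both encode beta subunits of the pump.

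REST is a repressor known to silence neuronal genes, sodium channel genes among them, in non-neuronal cells. Of 9 genes of its complex, 3 rose, 2 fell and 4 did not pass, with a median of -0.02 and 55.6% past the threshold beside 57.5% of all tested genes. Rest rose from 8.70 ± 1.12 to 13.8 ± 1.35 CPM (adjusted p = 0.000346), the deacetylase gene Hdac1 from 107 ± 2.40 to 135 ± 3.47 CPM (adjusted p = 4.38e-05), and the histone methyltransferase gene Ehmt2 fell from 257 ± 10.1 to 214 ± 3.14 CPM (adjusted p = 0.000313). Against a fold change of 1.2 the calls of Hdac1 (adjusted p = 0.0699, 7.57e-08 to 0.0699 over the 12 alternatives) and Ehmt2 (0.447, 7.55e-06 to 0.447) were lost. The call of Rcor1, a corepressor gene, held under 9 of 12 alternatives (adjusted p 0.00499 to 0.396) and was lost against a fold change of 1.2 and without control replicate 2 or AVP replicate 2.

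**Figure D4:**
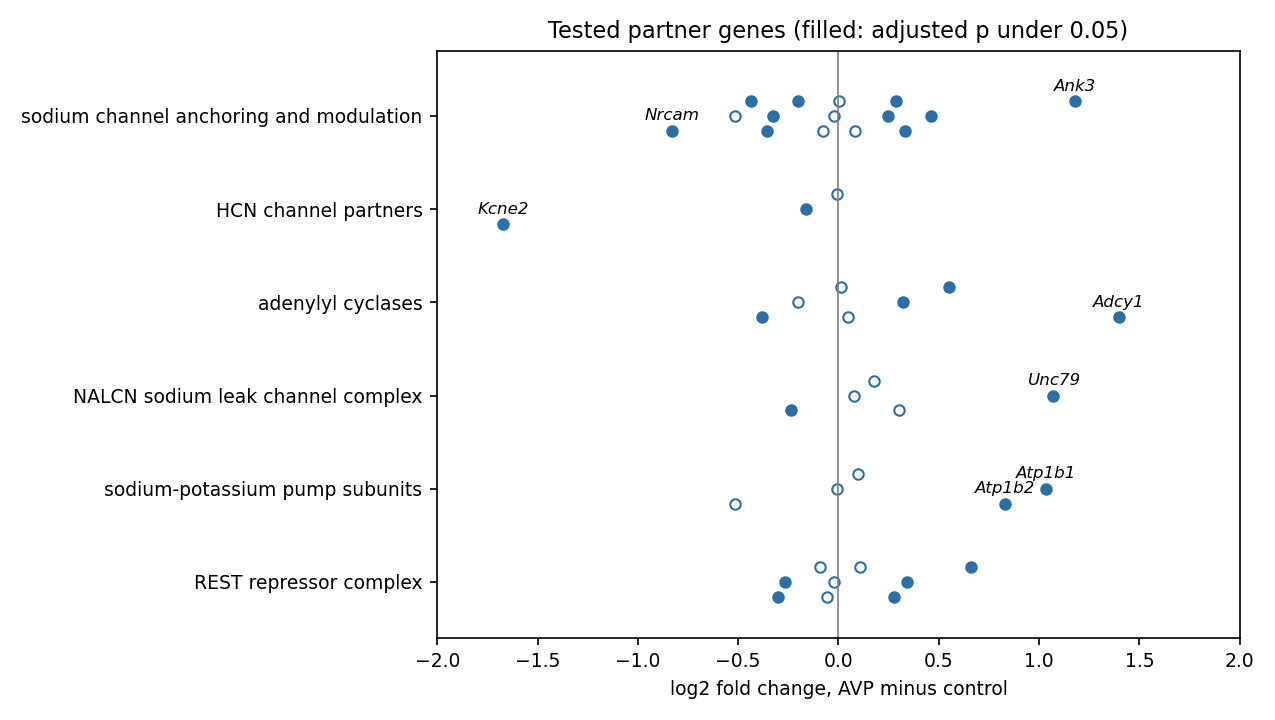
Log2 fold change of AVP minus control (horizontal axis) for the 44 tested genes of the 6 partner lists, with 1 point per gene, filled where the adjusted p was under 0.05. Points lie on both sides of 0 in each list with more than 3 tested genes, and Kcne2 at -1.67 and Adcy1 at 1.40 lie farthest out.

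Likeness of pattern was measured for the members with the greatest rise and fall, as the Euclidean distance between log2 CPM profiles (prior count 2) centred on their mean over the 6 libraries, among 10664 tested genes with a mean of at least 5 CPM. The genes nearest to Scn4b were Rgs4, Gadd45b and Zim1, at distances of 0.722, 1.06 and 1.09, against a median of 4.87 over all candidates. Their fitted log2 fold changes were 3.53, 3.38 and 3.11, each below the 5.21 of Scn4b. Scn4b had 0, 1 and 2 counts in the control libraries, so its distances depend on the prior count. Nearest to Scn2b were Pdzk1ip1, which went from 60.8 ± 7.52 to 19.9 ± 2.35 CPM, Kcns1, a silent potassium channel subunit, which went from 8.46 ± 0.840 to 2.92 ± 0.245 CPM, and H1f0, a linker histone gene, which went from 81.3 ± 11.6 to 21.7 ± 4.15 CPM. Their distances were 0.399, 0.444 and 0.504 against a median of 2.16. The 6 libraries fall in 2 groups, so any gene with a like difference between the groups lies near.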

How the data were processed

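RNA was measured in 3 control and 3 AVP-treated GT1-7 cultures, as TRIzol-extracted total RNA read by Illumina sequencing, per the labels' protocols. The authors deposited raw counts by gene symbol, with a table for each sample. The submitters' processing notes name mm10 and GRCm38; aligner, counter, annotation and strand use: not given in the sources used here. Rows whose symbols a spreadsheet had turned into dates were kept unnamed.

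Counts were fitted with edgeR 4.0.16 in R 4.3.3 (filterByExpr with a minimum count of 10, TMM factors, robust quasi-likelihood F test, AVP against control without covariates), and p-values were adjusted by Benjamini-Hochberg over all tested genes, with calls at 0.05. Each SE was recovered from the F statistic as the size of the log2 fold change over the root of F. CPM are TMM-scaled unless stated, and the Scn4b interval is an exact conditional one. Alternatives were DESeq2 1.42.0, RLE factors, library size alone, no filter, a fold change of 1.2 (glmTreat), a replicate block and each sample left out. Positions and exon lengths come from GENCODE M21 (GRCm38) and promoter windows from RefSeq (GRCm38.p6).

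Members and gene lists were chosen with earlier results of these data known. Named genes were the subunits of both families (some genes are not reported here), up to 3 called genes of smallest p per partner list, and the 3 genes nearest in pattern to the members of greatest rise and fall. Tmem28 stood in for Fam155b and Scn2a1 for Scn2a. Adcy6, Rcor1, Flna, Pex5l, Nalcn, Fgf13, S100a10 and the cell markers were named after their values were seen. Python 3.11.15, pandas 2.3.3, scipy 1.17.1 and matplotlib 3.10.9 handled tables, intervals and figures.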

Additional observations from a re-analysis of the deposited data

How the results depend on the processing

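Across 12 alternatives, the log2 fold changes of the 7 tested members gave 84 values, none of which changed sign. Of these, 76 stayed on their side of the threshold and 8 lost it, 6 of them Hcn2 (log2 fold change -0.16 to -0.11 in those 6, -0.21 to -0.11 in all 12) and the others Scn3a and Hcn3 against a fold change of 1.2. Those that stayed include every Scn4b value, and Scn4b entered the main fit through its AVP libraries alone, so it had to differ. They also include every Scn8a value, none of which was past the threshold. Scn3b stayed between 1.76 and 1.97, Scn2b between -1.94 and -1.53, Scn3a between 0.34 and 0.46, Hcn3 between -0.42 and -0.31 and Scn8a between -0.16 and -0.01. Scn4b moved most, between 4.66 and 6.07, fitted values that depend on the prior count and on 1 to 3 control counts. Against a fold change of 1.2, 3 members, 12 partner genes, 2197 genes higher and 2332 genes lower were past the threshold, since that test asks for more than any change. Under the other alternatives these counts were 5 to 6, 22 to 27, 3525 to 4475 and 3592 to 4166. Same-numbered control and AVP libraries did not deviate together (correlations of 0.08, -0.05 and 0.04), so the numbers are not taken to pair them. With the replicate block, 6 members, 26 partner genes, 3972 genes higher and 3969 genes lower were called. Scaling moved the median of all genes by at most 0.04 on the log2 scale. Depth limits Scn9a and control Scn4b, which lie near the floor, and intervals cover counting error only.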
